A study of Mus musculus with 9 samples.

Results

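The CXC chemokines are small secreted proteins that draw leukocytes along a gradient. The 10 genes described here are Cxcl1, Cxcl2, Cxcl5, Cxcl9, Cxcl10, Cxcl11, Cxcl12, Cxcl13, Cxcl14 and Cxcl16, chosen by symbol among the 55536 genes counted, and they were sorted by their known inducers into 3 IL-17 and NF-κB-induced genes, 3 interferon-induced genes and 4 homeostatic genes. They were read in bulk RNA sequencing libraries of mouse quadriceps after volumetric muscle loss, the surgical removal of a piece of muscle. There were 5 libraries labelled Il17ra-/-, a knockout of the receptor subunit that interleukin-17 cytokines signal through, and 4 labelled WT (wild type). All 9 carry the strain C57BL/6 and an age of 6 weeks, and genotype was the label that differed. The sample characteristics give saline as the material and harvest 1 week after surgery, whereas the extraction protocol gives PCL and collection at 6 weeks, and the sources used here do not settle which holds. The labels do not describe the knockout allele, and no label ties a library to a litter, day or sequencing run, so a batch that follows genotype cannot be told apart from it. Replicates are animals in the design text, though its number of animals per genotype does not match the labelled libraries, and p-values measure the spread between these libraries.

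CXC chemokines with a Glu-Leu-Arg motif, such as Cxcl1, Cxcl2 and Cxcl5, act on the receptor Cxcr2 and attract neutrophils. Interleukin-17 induces them through NF-κB and C/EBP factors and by making their messenger RNAs more stable. Cxcl9, Cxcl10 and Cxcl11 act on Cxcr3 on activated T and NK cells and are induced by interferons, with NF-κB taking part. Homeostatic members are made without inflammation, many by fibroblasts and other stromal cells, and guide stem cells, B cells and resident leukocytes.

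Promoter sequences from RefSeq on GRCm38.p6, each reaching from 250 bases before the annotated start to 50 bases after it, were at hand for 7 of the 10 genes (Cxcl1, Cxcl2, Cxcl9, Cxcl10, Cxcl12, Cxcl13 and Cxcl14). Those of the 4 inducible genes that were lower in the libraries labelled Il17ra-/- are printed 5′ to 3′ on the strand of the gene, since these genes shared that direction. Capitals mark matches, on either strand, to an NF-κB motif (GGGA and CC with any 4 bases between them), an interferon regulatory factor motif (GAAA and GAAA with any 2 bases between them), a STAT motif (TTCNNNGAA) or an AP-1 motif (TGANTCA). Cxcl1 lies at chr5:90890995-90891294 and Cxcl2 at chr5:90903649-90903948, both on the plus strand, and Cxcl9 at chr5:92328030-92328329 and Cxcl10 at chr5:92348840-92349139, both on the minus strand.
Cxcl1: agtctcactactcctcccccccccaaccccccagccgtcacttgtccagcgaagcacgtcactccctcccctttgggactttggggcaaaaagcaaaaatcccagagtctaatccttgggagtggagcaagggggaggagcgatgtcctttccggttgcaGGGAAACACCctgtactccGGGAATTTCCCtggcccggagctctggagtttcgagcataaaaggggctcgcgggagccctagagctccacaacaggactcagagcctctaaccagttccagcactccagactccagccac
Cxcl2: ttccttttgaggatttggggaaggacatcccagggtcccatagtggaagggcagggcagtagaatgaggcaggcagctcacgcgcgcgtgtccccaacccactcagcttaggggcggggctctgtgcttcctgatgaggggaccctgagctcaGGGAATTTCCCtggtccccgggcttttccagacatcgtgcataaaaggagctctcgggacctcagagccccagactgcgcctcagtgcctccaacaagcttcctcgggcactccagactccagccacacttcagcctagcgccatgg
Cxcl9: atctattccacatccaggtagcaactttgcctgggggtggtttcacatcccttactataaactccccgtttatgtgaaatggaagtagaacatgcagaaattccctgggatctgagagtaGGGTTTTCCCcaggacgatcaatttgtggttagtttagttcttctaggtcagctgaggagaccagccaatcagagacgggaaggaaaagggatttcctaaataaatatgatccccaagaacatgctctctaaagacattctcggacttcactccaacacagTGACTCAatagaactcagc
Cxcl10: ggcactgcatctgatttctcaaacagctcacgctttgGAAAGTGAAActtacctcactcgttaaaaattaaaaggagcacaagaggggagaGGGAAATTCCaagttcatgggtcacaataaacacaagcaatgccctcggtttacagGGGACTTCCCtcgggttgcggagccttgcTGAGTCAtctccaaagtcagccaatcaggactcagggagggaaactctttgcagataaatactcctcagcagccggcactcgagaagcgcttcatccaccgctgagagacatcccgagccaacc
Cxcl1 and Cxcl2 held the same 11-base run GGGAATTTCCC, 71 and 97 bases before the start, in which matches on both strands overlap, and Cxcl1 held a further NF-κB match 90 bases before it. Cxcl9 held 1 NF-κB match, 130 bases before the start, and an AP-1 match after the start. Cxcl10 held matches to NF-κB 159 and 103 bases before the start, to the interferon regulatory factor motif 213 bases before it and to AP-1 74 bases before it. Among the other 3 promoters, Cxcl13 held an NF-κB match, Cxcl14 an interferon regulatory factor match and a STAT match, and Cxcl12 none of the 4 motifs. Of 32851 mouse promoter windows of the same length, 20.7% held at least 1 NF-κB match, 3.44% an interferon regulatory factor match, 8.30% a STAT match and 7.81% an AP-1 match. A match describes the letters of these windows and does not show that a factor binds there.

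**Figure D1:**
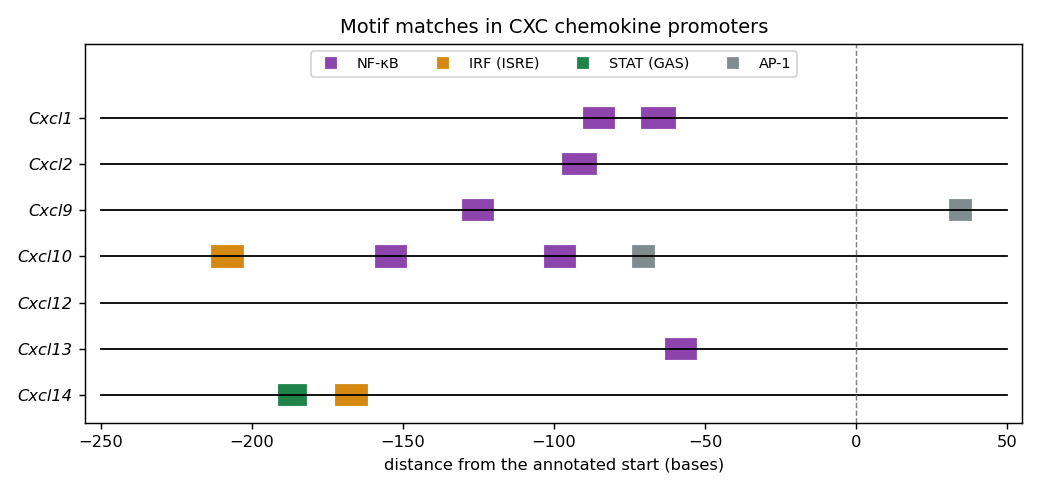
Matches to 4 motifs along 7 CXC chemokine promoters, by distance in bases from the annotated start (dashed line, 250 bases before to 50 after). Boxes in purple are NF-κB matches, which stand in Cxcl1, Cxcl2, Cxcl9, Cxcl10 and Cxcl13, and the line of Cxcl12 carries none.

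The libraries held 31.3 to 46.4 M counts each. Levels are given as CPM, the counts scaled to library size with TMM factors, and 3 counts were worth 0.0638 to 0.0984 CPM depending on the library. WT replicate 2 had the highest level among the libraries labelled WT for 6 of the 8 chemokines with at least 50 counts everywhere (Cxcl1, Cxcl2, Cxcl9, Cxcl10, Cxcl12 and Cxcl16). The same held for Cxcl5, and fold changes without WT replicate 2 are given for each of these genes. This library also had the lowest total, 31.3 M, and the fewest genes with a count, 17256. The other libraries labelled WT had 20229 to 20945 such genes, and those labelled Il17ra-/- had 18248 to 20694. Il17ra, the targeted gene, stood at 199.7, 185, 181, 284 and 191 CPM in the libraries labelled Il17ra-/-, against 75.9, 107, 85.4 and 119 CPM in those labelled WT (log2 fold change 1.11, SE 0.17, edgeR adjusted p = 0.00208). Its transcript count thus goes against a loss of the whole transcript in the libraries labelled Il17ra-/-, and each direction given here is that between the labels. Neutrophil, T and NK cell, B cell and pan-leukocyte markers were at or near 0: none of their 21 genes exceeded 0.461 CPM in any library. Fibroblast markers were abundant, with the 6 genes of that list summing to 25378 to 31445 CPM in the libraries labelled Il17ra-/- and 31576 to 33291 CPM in those labelled WT. These marker levels describe the RNA that was sequenced. Whether they reflect the cells of the whole injured muscle was not tested.

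Of the 6 inducible CXC chemokines, 4 were lower in the libraries labelled Il17ra-/-, with Cxcl10 at 5.21-fold lower and Cxcl2 at 4.17-fold lower, while Cxcl5 did not pass and Cxcl11 was too low to be tested. Of the 10 genes, 9 passed the filter on low counts, 5 were called lower (Cxcl1, Cxcl2, Cxcl9, Cxcl10 and Cxcl14) and none was called higher. A call is an edgeR quasi-likelihood adjusted p under 0.05, adjusted over all 16039 tested genes, of which 3.06% were called, 1.71% lower and 1.35% higher. Cxcl1, Cxcl9, Cxcl10 and Cxcl14 did not overlap between the groups; 4.56% of all tested genes did not overlap either and were lower in the libraries labelled Il17ra-/-. In bulk libraries, fewer cells of a type and less RNA per cell cannot be told apart. The count of 5 fell to 3 without Il17ra-/- replicate 2, 3 or 4, and Cxcl1 and Cxcl10 kept their calls in each fit that left out a library.

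**Figure D2:**
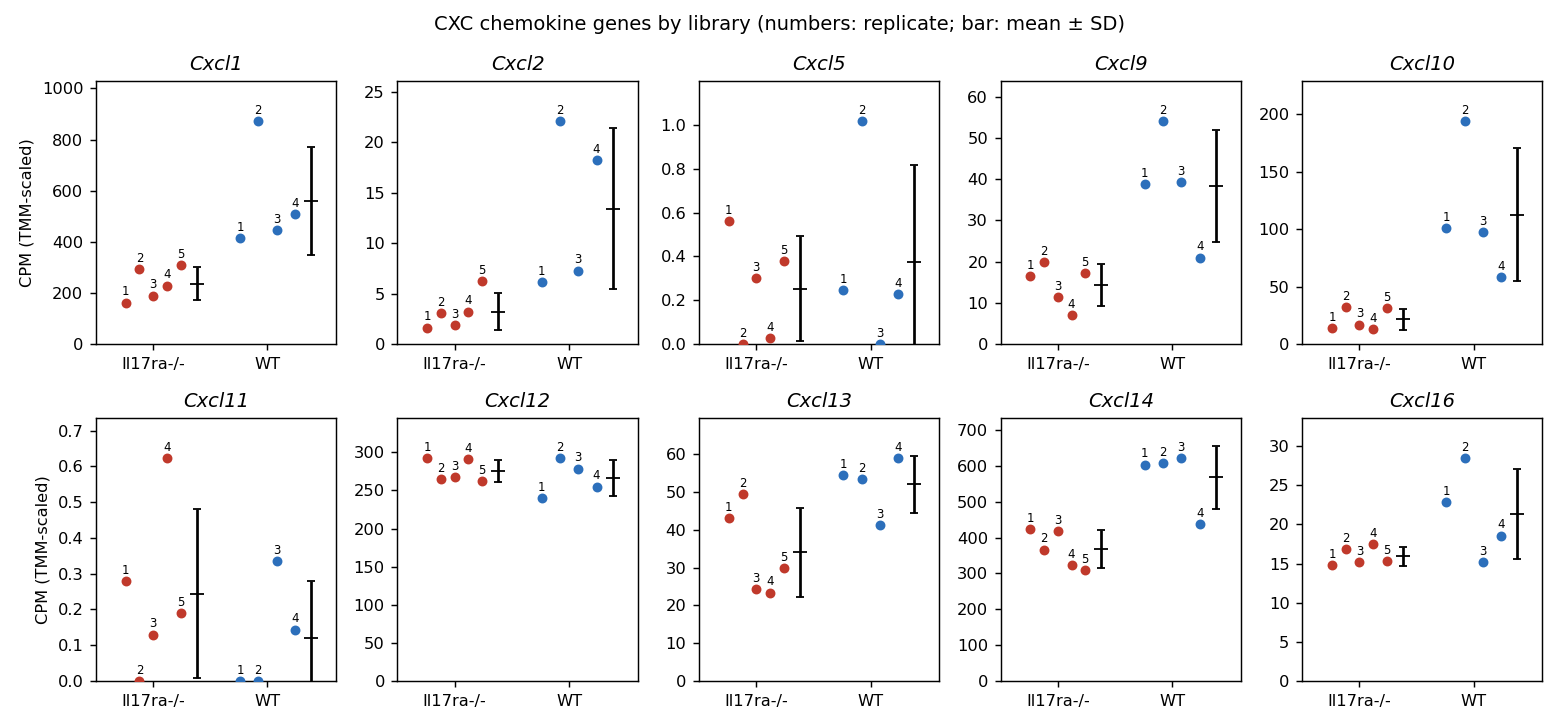
CPM (TMM-scaled, linear axes from 0) of the 10 CXC chemokine genes in each library, Il17ra-/- in red and WT in blue, with the replicate number above each point and the mean ± SD beside each group (n = 5 and n = 4; bars that would pass below 0 are cut there). Cxcl10 shows 13.2 to 32.5 CPM in the libraries labelled Il17ra-/- and 58.6 to 194 CPM in those labelled WT, whereas the groups overlap for Cxcl12.

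Among the IL-17 and NF-κB-induced genes, Cxcl1, the mouse neutrophil attractant also called KC, was the most abundant. The gene spans chr5:90891241-90893115 on the plus strand (GRCm38, as for the other genes). It stood at 162, 293, 190.2, 229 and 309.6 CPM in the libraries labelled Il17ra-/- and at 416, 872, 447 and 509 CPM in those labelled WT. Every library labelled Il17ra-/- was below every library labelled WT, and WT replicate 2 was far above the others. The means were 237 ± 63.6 CPM (SD, n = 5) in the libraries labelled Il17ra-/- and 561 ± 211 CPM (SD, n = 4) in those labelled WT. Cxcl1 was 2.37-fold lower (log2 fold change −1.24, SE 0.23, edgeR adjusted p = 0.00907), and without WT replicate 2 the log2 fold change was −0.95 (edgeR adjusted p = 0.00904).

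Cxcl2, the neutrophil attractant also called MIP-2, lies next to it at chr5:90903871-90905938 on the same strand and was far less abundant. It stood at 1.65, 3.11, 1.90, 3.23 and 6.23 CPM in the libraries labelled Il17ra-/- and at 6.14, 22.1, 7.29 and 18.2 CPM in those labelled WT. The groups met at their edges, since Il17ra-/- replicate 5 was just above WT replicate 1, and the libraries labelled WT split into 2 low and 2 high values. Cxcl2 was 4.17-fold lower (log2 fold change −2.06, SE 0.44, edgeR adjusted p = 0.0195), and without WT replicate 2 the log2 fold change was −1.71 (edgeR adjusted p = 0.0431). The call was lost, with adjusted p-values up to 0.0616, without WT replicate 4 or without any of Il17ra-/- replicates 1 to 4, at log2 fold changes between −2.06 and −1.87. Cxcl2 and the Cxcl3 gene share an identical stretch of 110 bases, in which reads can map to both, and such reads are not counted for either.

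Cxcl5, the third of these genes, was at the edge of detection in both groups. It had counts between 0 and 31 per library, or 0 to 0.560 CPM in the libraries labelled Il17ra-/- and 0 to 1.02 CPM in those labelled WT. The fitted log2 fold change of −0.55 had a 95% interval from −3.27 to 2.17 (edgeR adjusted p = 0.871), and without WT replicate 2 it was 0.67 (adjusted p = 0.887), so no difference was detectable at this depth. None of 5 further CXC ligand genes, Cxcl3, Pf4, Ppbp, Cxcl15 and Cxcl17, passed the filter. Cxcl3 did not exceed 0.0822 CPM, and Cxcl15 reached 1.11 CPM in the libraries labelled Il17ra-/- and 3.70 CPM in those labelled WT.

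The 3′ untranslated regions of Cxcl1 and Cxcl2 stood out among the 10 genes in AU-rich elements, the sequences through which many chemokine messenger RNAs are degraded. The pentamer ATTTA (written with T for U) occurred 7 times in the 592 bases of the Cxcl1 region, and 0.464% of 2157 mouse 3′ untranslated regions within 20% of that length held at least as many. It occurred 11 times in the 734 bases of the Cxcl2 region, reached by 0.0875% of 2285 such regions. The nonamer TTATTTATT occurred 2 times in Cxcl1 and 4 times in Cxcl2 and in none of the other 8 genes, and 3.57% and 4.20% of regions of like length held it. Cxcl10, with 2 pentamers in 729 bases, was matched or passed by 34.5% of regions of like length, Cxcl9, with 3 in 2452 bases, by 69.5%, and Cxcl14 held none.

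The interferon-induced pair Cxcl9 and Cxcl10 was lower in the libraries labelled Il17ra-/- as well. Cxcl10, also called IP-10, lies at chr5:92346638-92348889 on the minus strand. It stood at 14.2, 32.5, 17.1, 13.2 and 31.1 CPM in the libraries labelled Il17ra-/- and at 101, 194, 97.3 and 58.6 CPM in those labelled WT. The highest library labelled Il17ra-/- stayed well below the lowest labelled WT, and Il17ra-/- replicates 2 and 5 were the highest of their group, as they were for Cxcl1. The log2 fold change was −2.38 (SE 0.34, edgeR adjusted p = 0.00131), the largest among the 10 genes, and −1.98 without WT replicate 2 (edgeR adjusted p = 0.00119). The exons of Cxcl10 overlap those of Art3 on the other strand by 133 of 2252 bases, and reads that touch both genes can be left out of both counts. Art3 stood at 50.2 to 65.4 CPM in the libraries labelled Il17ra-/- and at 37.1 to 55.6 CPM in those labelled WT and did not pass (log2 fold change 0.33, adjusted p = 0.250).

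Cxcl9, also called MIG, lies at chr5:92321347-92328079 on the same strand. It stood at 16.5, 19.8, 11.4, 7.10 and 17.3 CPM in the libraries labelled Il17ra-/- and at 38.8, 54.0, 39.4 and 20.97 CPM in those labelled WT. The groups did not overlap, although WT replicate 4 was close to Il17ra-/- replicate 2. Cxcl9 was 2.65-fold lower (log2 fold change −1.41, SE 0.29, edgeR adjusted p = 0.0160), with a log2 fold change of −1.19 without WT replicate 2 (edgeR adjusted p = 0.0306), and its call was lost without Il17ra-/- replicate 3 (log2 fold change −1.33, adjusted p = 0.0545). Cxcl11 did not pass the filter, with 0 to 23 counts per library and at most 0.624 CPM in the libraries labelled Il17ra-/- and 0.335 CPM in those labelled WT. GENCODE classes Cxcl11 as a polymorphic pseudogene in this genome, and 1582 of its 3794 exon bases overlap the pseudogene Gm2673 on the other strand.

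The homeostatic members differed among themselves. Cxcl12, the stromal factor that holds stem cells in their niche through Cxcr4, lies at chr6:117168535-117181367 on the plus strand. It stood at 293, 265, 268, 291 and 262 CPM in the libraries labelled Il17ra-/- and at 239.9, 292, 279 and 255 CPM in those labelled WT. The groups overlapped throughout. The log2 fold change of 0.05 did not pass (edgeR adjusted p = 0.852), and its 95% interval from −0.16 to 0.26 leaves out a change of the size seen for Cxcl1. Without WT replicate 2 the log2 fold change was 0.10 (edgeR adjusted p = 0.674).

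Cxcl14, a chemokine made by fibroblasts and epithelia, lies at chr13:56288643-56296551 on the minus strand. It stood at 425, 366, 419, 323 and 309.6 CPM in the libraries labelled Il17ra-/- and at 604, 609, 623 and 437 CPM in those labelled WT. The groups did not overlap, though WT replicate 4 was only just above Il17ra-/- replicate 1. Cxcl14 was 1.54-fold lower (log2 fold change −0.62, SE 0.14, edgeR adjusted p = 0.0237). The call was lost without WT replicate 1 or 3 or without Il17ra-/- replicate 2, 4 or 5, with log2 fold changes between −0.62 and −0.56 and adjusted p-values up to 0.0797. Among the fibroblast markers, Pi16, a gene of fibro-adipogenic progenitors, was lower as well (log2 fold change −0.55, adjusted p = 0.0207, lost under 4 of 17 alternatives), while Pdgfra (0.23, adjusted p = 0.491), Ly6a (−0.35, adjusted p = 0.347) and Dpt (−0.39, adjusted p = 0.0933) did not pass. Their part in the Cxcl14 difference was not tested.

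Cxcl13, which draws B cells through Cxcr5, stood at 43.1, 49.5, 24.3, 23.4 and 29.8 CPM in the libraries labelled Il17ra-/- and at 54.5, 53.4, 41.3 and 59.0 CPM in those labelled WT. Il17ra-/- replicates 1 and 2 lay within the range of the libraries labelled WT and the other 3 below it. The log2 fold change of −0.61 (95% interval −1.07 to −0.16) did not pass (edgeR adjusted p = 0.158). Cxcl16, a membrane-bound chemokine shed by proteases that acts on Cxcr6, stood at 14.8, 16.9, 15.2, 17.5 and 15.3 CPM in the libraries labelled Il17ra-/- and at 22.9, 28.5, 15.2 and 18.6 CPM in those labelled WT. The groups overlapped and the spread was wider in WT, and the log2 fold change of −0.42 (95% interval −0.78 to −0.05) did not pass (edgeR adjusted p = 0.237) and was −0.24 without WT replicate 2 (edgeR adjusted p = 0.460). Exons of Cxcl16 overlap those of Zmynd15 on the other strand over 552 of 3021 bases.

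**Figure D3:**
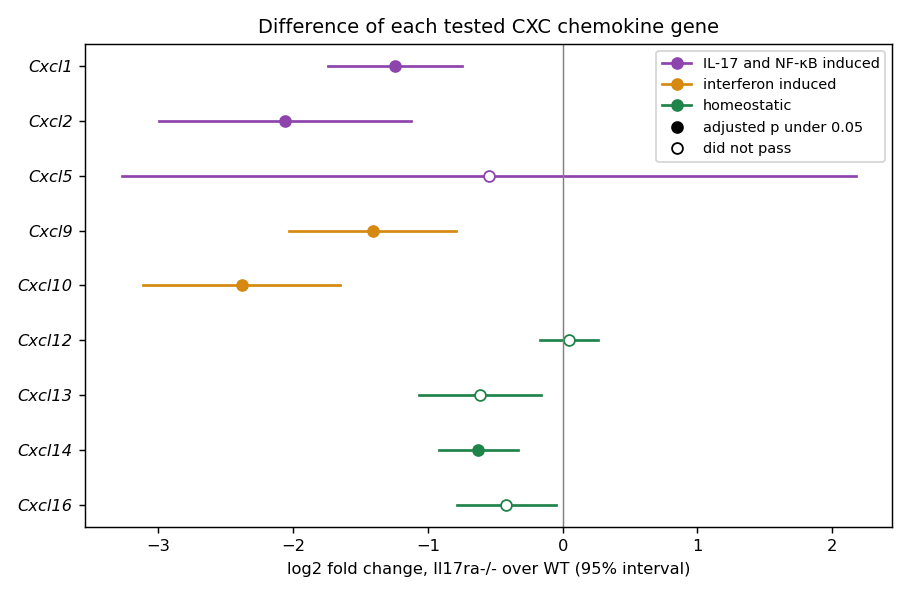
Log2 fold change (Il17ra-/- over WT) with its 95% interval for the 9 CXC chemokine genes that passed the filter on low counts, coloured by known inducer and filled where the edgeR adjusted p was under 0.05. Cxcl10 lies farthest to the left at −2.38, and the interval of Cxcl12 spans 0 from −0.16 to 0.26.

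Differences between members were tested within libraries, as log2 ratios of CPM with a two-sided exact permutation test, adjusted over the 7 ratios tested. The ratio of Cxcl10 to Cxcl1 was −3.51 ± 0.36 in the libraries labelled Il17ra-/- (SD, n = 5) and −2.38 ± 0.50 in those labelled WT (SD, n = 4), so Cxcl10 was lower by more than Cxcl1 was (difference −1.13, exact permutation p = 0.0159, adjusted p = 0.0278). The p of 0.0159 is the smallest this design can give, and the ratios did not overlap, with WT replicate 4 at −3.12 next to Il17ra-/- replicate 2 at −3.17. Cxcl9 differed by less than Cxcl10 did, since the ratio of Cxcl9 to Cxcl10 was −0.56 ± 0.45 in the libraries labelled Il17ra-/- and −1.50 ± 0.24 in those labelled WT (difference 0.94, exact permutation p = 0.0159, adjusted p = 0.0278). The ratio of Cxcl12 to Cxcl1 ran from −0.24 to 0.85 in the libraries labelled Il17ra-/- and from −1.58 to −0.68 in those labelled WT (difference 1.27, the same p-values from the exact permutation test). The homeostatic genes parted too, with the ratio of Cxcl14 to Cxcl12 lower by 0.67 (0.41 ± 0.21 in the libraries labelled Il17ra-/- and 1.08 ± 0.23 in those labelled WT, the same p-values from the exact permutation test). Cxcl2 against Cxcl1 (difference −0.77, exact permutation p = 0.0635, adjusted p = 0.0889), Cxcl16 against Cxcl12 (−0.43, exact permutation p = 0.0794, adjusted p = 0.0926) and Cxcl5 against Cxcl1 (0.89, exact permutation p = 0.476) did not pass. The 4 ratios that passed did so narrowly: leaving out any 1 library other than Il17ra-/- replicate 5 kept their direction but gave adjusted p-values of 0.05 to 0.0625, with each exact p at the smallest that the remaining libraries allow (0.0357 for 5 against 3 and 0.0286 for 4 against 4). Cxcl2 against Cxcl1 passed without Il17ra-/- replicate 5 (difference −0.94, exact permutation adjusted p = 0.0400).

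**Figure D4:**
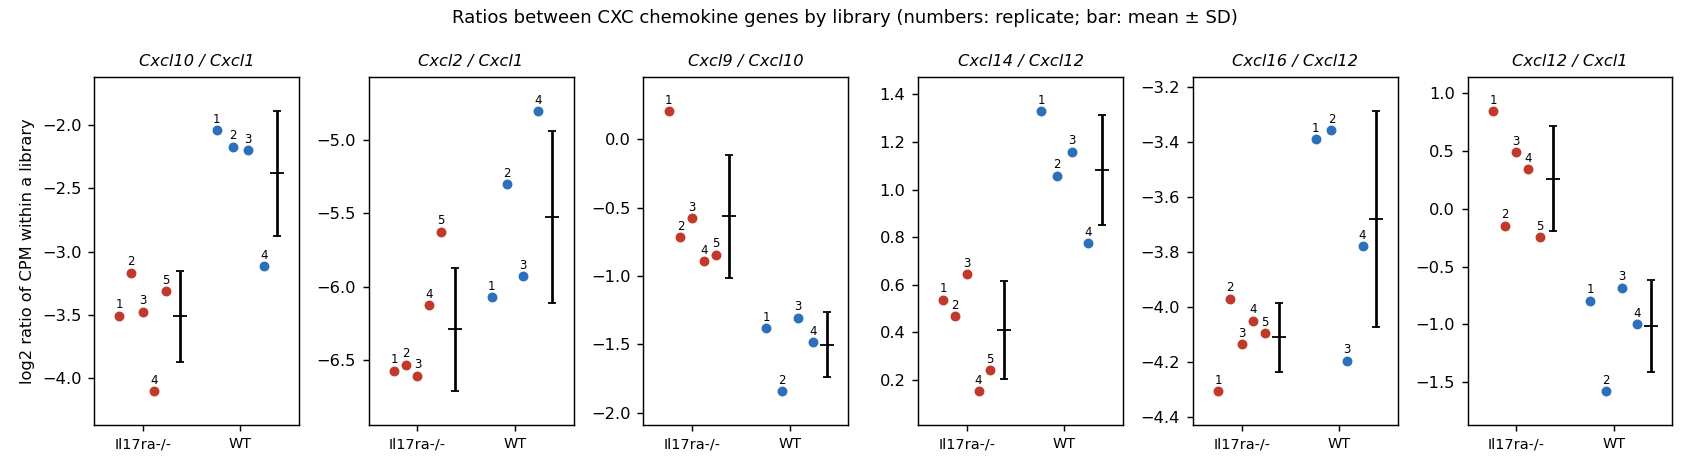
Log2 ratio of CPM between pairs of CXC chemokine genes within each library (vertical axes differ between panels and do not start at 0), Il17ra-/- in red and WT in blue, with replicate numbers and the mean ± SD (n = 5 and n = 4). The groups do not overlap for Cxcl10 to Cxcl1, Cxcl9 to Cxcl10, Cxcl14 to Cxcl12 and Cxcl12 to Cxcl1.

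Levels of different genes were compared per length, as TPM computed from the counts and exon lengths. Each length is that of all annotated exons of a gene merged. For Cxcl1, Cxcl2 and Cxcl10 these form 1 block over the whole gene (1875, 2068 and 2252 bases), and for Cxcl12 they make 8176 bases. Single transcripts can be shorter, so the order of genes and their shares depend on these lengths. On this measure Cxcl14 and Cxcl1 were the most abundant members in both groups. Cxcl14 averaged 769 TPM in the libraries labelled Il17ra-/- and 1075 TPM in those labelled WT, and Cxcl1 averaged 481 TPM in the libraries labelled Il17ra-/- and 1015 TPM in those labelled WT. Their ranges overlapped within the libraries labelled WT, at 869 to 1248 TPM for Cxcl14 and 785 to 1416 TPM for Cxcl1, but not within those labelled Il17ra-/-, at 651 to 892 TPM for Cxcl14 and 328 to 634 TPM for Cxcl1. Cxcl12 and Cxcl13 came next in the libraries labelled Il17ra-/-, at 121 to 136 and 77.5 to 160.5 TPM, ranges that overlap, and Cxcl10 followed at 22.4 to 53.8 TPM, below both. In those labelled WT, Cxcl10 at 94.7 to 262 TPM overlapped both Cxcl13 at 132 to 187 TPM and Cxcl12 at 104 to 125 TPM. Cxcl9, Cxcl16 and Cxcl2 were lower, at means of 18.2, 20.1 and 5.94 TPM in the libraries labelled Il17ra-/- and of 43.3, 24.1 and 22.02 TPM in those labelled WT. The 10 genes summed to 1412 to 1715 TPM in the libraries labelled Il17ra-/- and 2332 to 3060 TPM in those labelled WT. Of that sum Cxcl12 made up 7.04 to 9.60% in the libraries labelled Il17ra-/- and 3.56 to 4.87% in those labelled WT, while Cxcl10 made up 1.54 to 3.29% in the libraries labelled Il17ra-/- and 4.06 to 8.57% in those labelled WT.

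Few receptors of CXC chemokines were detected in these libraries, where leukocyte markers were near 0 too, and none of those tested passed. Cxcr3 and Cxcr1 had no count in any library, which allows at most 0.0638 to 0.0984 CPM for counting error alone, and Cxcr2 did not exceed 0.0328 CPM. Of the 8 receptor genes 3 passed the filter, none was called by edgeR or limma-voom, 1 had an unadjusted p under 0.05, and DESeq2 called the same gene, Ackr1, lower. Cxcr4, the signalling receptor of Cxcl12, stood at 13.7 ± 2.91 CPM (SD, n = 5) in the libraries labelled Il17ra-/- and 12.1 ± 3.40 CPM (SD, n = 4) in those labelled WT (log2 fold change 0.17, edgeR adjusted p = 0.731). Ackr3, which scavenges Cxcl12 and Cxcl11, was the most abundant at 954 ± 120 CPM in the libraries labelled Il17ra-/- and 1143 ± 195 CPM in those labelled WT (−0.26, edgeR adjusted p = 0.356). Ackr1, a receptor of venules and red cells that binds inflammatory chemokines, stood at 23.2 to 39.7 CPM in the libraries labelled Il17ra-/- and 36.1 to 90.7 CPM in those labelled WT and did not pass (−0.83, edgeR adjusted p = 0.0744).

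Regulators that act on the inducible chemokines were in part lower too. Of 12 NF-κB and C/EBP factors and inhibitors, 5 were called lower and none higher, with a median log2 fold change of −0.41 against −0.00 over all tested genes. Nfkbiz and Bcl3, nuclear cofactors of NF-κB, were lower by 1.39 and 1.57 on the log2 scale (edgeR adjusted p = 0.00120 and 4.10e-04). Nfkbia and Tnfaip3, feedback inhibitors that NF-κB itself induces, had log2 fold changes of −1.35 and −0.63 (edgeR adjusted p = 2.80e-04 and 0.00874). Cebpd, named because it completes the 5, had one of −0.69 (edgeR adjusted p = 0.0327), with its call lost under 8 of 17 alternatives, among them the fits without WT replicate 3 or without any 1 of the Il17ra-/- libraries. The 4 subunits did not pass by edgeR, with Relb at −0.48 (adjusted p = 0.0614), Rela at −0.34 (adjusted p = 0.112), Nfkb2 at −0.31 (adjusted p = 0.244) and Nfkb1 at −0.12 (adjusted p = 0.570). Relb and Rela did not overlap between the groups, as was so for 4.56% of all tested genes in that direction. DESeq2, which called 7 of the 12 and 6.96% of all genes it tested, called both lower.

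Of 9 factors that stabilise or degrade chemokine messenger RNAs, 2 were called lower and none higher (median log2 fold change −0.31). Arid5a, which protects inflammatory messenger RNAs from decay, stood at 14.6, 21.8, 24.1, 25.3 and 41.8 CPM in the libraries labelled Il17ra-/- and at 109, 153, 102 and 82.5 CPM in those labelled WT (−2.13, edgeR adjusted p = 3.78e-04). Zc3h12a, the RNase regnase-1 that degrades them, had a log2 fold change of −1.31 (edgeR adjusted p = 2.17e-04). The AU-rich element binding genes Zfp36l1 (−0.38, edgeR adjusted p = 0.0660) and Zfp36l2 (0.39, adjusted p = 0.110) did not pass by edgeR, though neither overlapped between the groups. DESeq2 called 5 of the 9, against 6.96% of all genes it tested.

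The interferon pathway was measured as 2 lists. Of 13 ligands, receptors and signalling genes, 11 passed the filter and 1 was called, Irf1, a transcription factor that induces Cxcl9 and Cxcl10. Irf1 stood at 134, 212, 159, 156 and 213 CPM in the libraries labelled Il17ra-/- and at 564, 918, 594 and 523 CPM in those labelled WT (log2 fold change −1.89, SE 0.18, edgeR adjusted p = 1.50e-04), with no overlap. Ifngr1 (−0.24, adjusted p = 0.253), Stat2 (−0.19, adjusted p = 0.377) and Ifnar2 (−0.13, adjusted p = 0.572) did not pass by edgeR. Of the 15 interferon-stimulated genes none was called by edgeR or limma-voom, 5 had an unadjusted p under 0.05, and DESeq2 called 4. Over all genes, 16.4% of those tested by edgeR had an unadjusted p under 0.05 and DESeq2 called 6.96%. A negative log2 fold change was seen in 8 of the 15, and the median was −0.04. The smallest p-values belonged to Ifih1 (0.56, edgeR adjusted p = 0.0579), Ifit2 (0.48, adjusted p = 0.0803), Gbp2 (−0.46, adjusted p = 0.0962) and Ifi44 (1.54, adjusted p = 0.166), which are the 4 that DESeq2 called and of which 3 had positive values. None of the 6 proteases that process CXC chemokines was called by edgeR, DESeq2 or limma-voom (median −0.08, 0 genes with an unadjusted p under 0.05), the smallest p being that of Mmp2 (−0.21, edgeR adjusted p = 0.353).

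**Figure D5:**
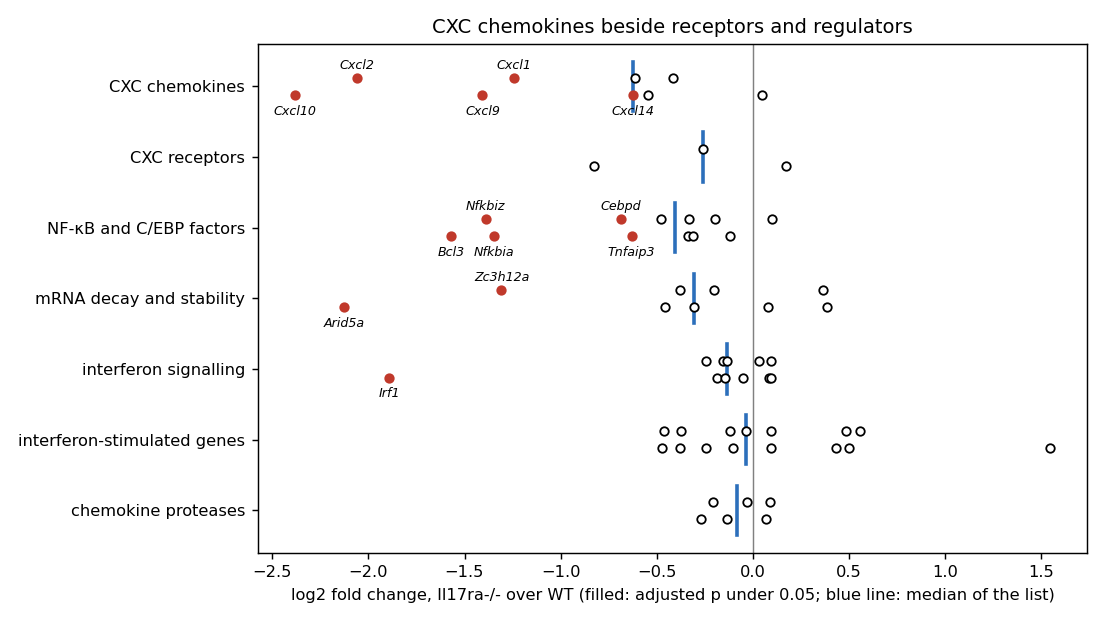
Log2 fold change (Il17ra-/- over WT) of the tested CXC chemokine genes, their receptors and 5 lists of regulators, with 1 point per gene, filled and named where the edgeR adjusted p was under 0.05, and a blue line at each list's median. Irf1 at −1.89 stands alone in interferon signalling, and no point of the interferon-stimulated genes is filled.

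Several other genes moved with the groups, and their part in the chemokine differences was not tested. Of 9 immediate early genes, which respond to stress within minutes, 4 were called lower and none higher, led by Egr2 (−1.13, edgeR adjusted p = 7.93e-04) and Atf3 (−1.52, adjusted p = 0.00193); the call of Nr4a1, another of the 4, was lost under 8 of 17 alternatives, among them leaving out any 1 of the WT libraries. Of 6 clock genes, 3 were called higher and 1 lower, and Nr1d1, a clock repressor, stood at 91.5 to 117 CPM in the libraries labelled Il17ra-/- and 12.1 to 22.4 CPM in those labelled WT (2.77, edgeR adjusted p = 8.01e-06). The 8 macrophage markers summed to 10.2 to 19.3 CPM in the libraries labelled Il17ra-/- and 24.4 to 40.3 CPM in those labelled WT, and without Cd68, the called member (−2.80, edgeR adjusted p = 2.17e-04), to 8.30 to 18.0 CPM in the libraries labelled Il17ra-/- and 10.8 to 16.1 CPM in those labelled WT. All 5 mural cell markers were called higher, and their sum was 1375 to 1926 CPM in the libraries labelled Il17ra-/- and 798 to 1009 CPM in those labelled WT. The call of Cspg4 among them was lost without WT replicate 4 or without Il17ra-/- replicate 1 or 4 (adjusted p-values up to 0.0609). The 6 muscle fibre markers, 2 of them called higher, summed to 2682 to 3644 CPM in the libraries labelled Il17ra-/- and 974 to 2461 CPM in those labelled WT. Of the 2, Acta1 lost its call under 6 of 17 alternatives, among them the fits without WT replicate 3 or without Il17ra-/- replicate 1, 2, 3 or 4. The 3 satellite cell markers, 2 of them called higher, summed to 104 to 129.5 CPM in the libraries labelled Il17ra-/- and 50.1 to 76.1 CPM in those labelled WT. None of the 6 endothelial markers was called by edgeR, DESeq2 or limma-voom, with 0 of them at an unadjusted p under 0.05 (summed CPM 311 to 386 in the libraries labelled Il17ra-/- and 265 to 458 in those labelled WT). That sum was uneven, with 1 gene reaching 365 CPM in a library. Pecam1 averaged 1.34 CPM in the libraries labelled Il17ra-/- and 2.38 CPM in those labelled WT, and Cdh5 6.08 and 6.94 CPM.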

How the data were processed

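Quadriceps RNA was sequenced in 9 libraries. The files hold raw counts of read pairs per gene, deposited as integers. Per the file headers the authors counted over exons with featureCounts 1.6.0 and GENCODE M21 (GRCm38), without strand. Pairs touching several genes can thus be left out of the counts. STAR is named in the submitters' processing notes (version not given in the sources used here). After filterByExpr and TMM scaling, edgeR 4.0.16 (R 4.3.3) ran its quasi-likelihood test on genotype alone, with Benjamini-Hochberg adjustment over every gene tested. The SE was derived from the fold change and its F statistic, and 95% intervals from the t distribution. Log2 ratios took log2 CPM with a prior count of 2 and exact permutation tests (scipy 1.17.1). TPM was computed from counts and exon lengths. All 55536 gene identifiers matched GENCODE M21, whose transcripts gave the 3′ untranslated regions. The edgeR fit was also run on counts simulated from its own estimates of level and spread. Such counts hold no batch and no outlying library, so they cannot test for either.

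The members and gene lists were chosen with earlier results of these data known. Named beside the members are up to 4 genes of each list with the smallest p; Rela, Relb, Nfkb1, Nfkb2, Cebpd, Cxcl3, Cxcr1, Cxcr2 and Cxcr3 were named after their values were seen. Alternatives were RLE, upper quartile and total-count scaling, no filter, a filter of 1 CPM in 4 libraries, DESeq2 1.42.0, limma-voom 3.58.1, a replicate block and leaving out each library; for ratios, prior counts of 0.5 and 10. Intervals of fold changes include the spread between libraries, whereas the floor of 3 counts covers counting error only.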

Additional observations from a re-analysis of the deposited data

Results flagged for a closer look

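WT replicate 4 had the lowest Cxcl14 level of the libraries labelled WT, at 437 CPM, with the next at 604 CPM. The gap was 0.900 of the group's range, above the 95% critical value of Dixon's test for 4 samples. It was the only flag among the 20 combinations of gene and group examined, and chance flags about 1 in 20. Without this library the log2 fold change of Cxcl14 was −0.73 (edgeR adjusted p = 0.00909).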

How the results depend on the processing

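Cxcl1 and Cxcl10 kept their direction and call under all 17 alternatives of the edgeR fit, with adjusted p-values up to 0.0351 and 0.00719, and Cxcl12, Cxcl13 and Cxcl16 kept their direction and stayed uncalled under the same 17. Calls were lost only by leaving out a library: under 5 of 17 alternatives for Cxcl2, 5 for Cxcl14 and 1 for Cxcl9. Cxcl5 turned to 0.67 without WT replicate 2, the library with its highest count, 31; it had a value under 12 alternatives, since it did not pass the filter or had no adjusted p under the rest. The number of chemokines called was 5, and 3 to 5 when a library was left out. Over all genes, leaving out a library gave 275 to 567 calls. Leaving out a library moved the difference in log2 ratio between −1.38 and −0.99 for Cxcl10 to Cxcl1, 0.75 and 1.02 for Cxcl9 to Cxcl10, −0.77 and −0.59 for Cxcl14 to Cxcl12, 1.08 and 1.40 for Cxcl12 to Cxcl1, −0.60 and −0.32 for Cxcl16 to Cxcl12, and −0.95 and −0.53 for Cxcl2 to Cxcl1, with 0.19 and 1.47 for Cxcl5 to Cxcl1. Libraries with the same replicate number did not deviate together over the tested genes (correlations of −0.02 to 0.06). Such values cannot exclude a weak pairing, and no label states one. With the replicate block 5 chemokines were called and 363 genes in all, against 491, and the paired ratios over 4 pairs, whose smallest exact p is 0.125, were −1.18 for Cxcl10 to Cxcl1, 1.01 for Cxcl9 to Cxcl10, −0.63 for Cxcl14 to Cxcl12 and 1.40 for Cxcl12 to Cxcl1 (adjusted p = 0.175 each). DESeq2 called 1066 genes and 5 chemokines, and of the mRNA decay and stability factors 5 rather than 2. Depth limits Cxcl5 and Cxcl11, with at most 31 and 23 counts.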

Other observations

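The inducible members sit in 2 clusters of chromosome 5, and their neighbours were examined for like differences, as a description. The cluster from Cxcl5 to Cxcl2 spans 147 kb, and of the protein-coding genes inside it, Ppbp, Pf4, Cxcl3 and Cxcl15, none passed the filter on low counts. Within 100 kb of it, Mthfd2l, a mitochondrial folate enzyme gene, had a log2 fold change of −0.66 (edgeR adjusted p = 0.0949). The cluster from Cxcl9 to Cxcl11 spans 44.1 kb. Its neighbours within 100 kb did not pass by edgeR, with log2 fold changes of −0.25 for Naaa (adjusted p = 0.283), 0.14 for Sdad1 (adjusted p = 0.680), 0.10 for Nup54 (adjusted p = 0.799), −0.02 for Scarb2 (adjusted p = 0.930) and −0.75 for Ppef2 (adjusted p = 0.725).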
